A study of Mus musculus with 6 samples.

Results

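RNAseq of WT and Slc37a2 KO osteoclasts listed 22601 genes by symbol, of which 7 form a small transporter family with its partners: the paralogs *Slc37a1*, *Slc37a2*, *Slc37a3* and *Slc37a4*, the endoplasmic reticulum (ER) enzymes *G6pc3* and *H6pd*, and *Atraid*, the partner of *Slc37a3*. They were chosen by name, and all 7 were found in the table and passed the filter on low counts. The samples were osteoclasts grown from bone marrow macrophages (BMMs) over 5 days with RANKL at 10 ng/ml and M-CSF at 2 ng/ml, from 3 wild-type (WT) mice and 3 mice homozygous for a gene-trapped *Slc37a2* allele (Slc37a2 KO). The study's methods give the allele as Slc37a2 tm2a(KOMP)Wtsi, made from 1 clone of JM8A3.N1 embryonic stem cells and kept on C57BL/6N, with WT littermates as controls. The allele is carried by every cell of the mouse, so the osteoclast precursors and the cells they grew up among carried it as well. Column headings give the letter F, an age of 11 weeks and an animal number, by which the libraries are named here. What F stands for is not given in the headings. For the RNAseq the study's methods describe RNA of whole femurs and tibias, whereas the labels describe osteoclast cultures.

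Proteins of the SLC37 family sit in internal membranes and are described as exchangers of sugar phosphates, chiefly glucose-6-phosphate (G6P), for inorganic phosphate. SLC37A4 is the G6P transporter of the ER and hands its substrate to a glucose-6-phosphatase on the luminal side, which in blood and most other cells is G6PC3. Loss of either protein impairs neutrophils. H6PD uses G6P of the same compartment to make NADPH. SLC37A3 works with ATRAID as the route by which nitrogen-containing bisphosphonates, the drugs that block osteoclasts, leave the lysosome for the cytosol. SLC37A2 is found on the secretory lysosomes of osteoclasts. For SLC37A2 the study doubts transport of G6P and proposes export of glucose and fructose from these lysosomes.

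The libraries held 27552183 to 42522292 counts. Counts were turned into CPM, the reads of a gene relative to the library total, with TMM scaling, which corrects the totals for differences in RNA makeup. Markers matched the labelled cell type: 10 of 10 osteoclast markers were tested, and their summed level, without TMM scaling as for all marker values, was 39869 to 57359 CPM in WT and 44352 to 70383 CPM in KO libraries. In such bulk RNA the number of osteoclasts and the amount of RNA per osteoclast cannot be told apart. *Acp5*, the acid phosphatase of osteoclasts, ran from 9795 to 17030 CPM and *Ctsk*, their collagen-degrading protease, from 8220 to 17677 CPM. The 6 macrophage markers summed to 1970 to 2371 CPM in WT and 2024 to 2280 CPM in KO, most of it *Csf1r*, the M-CSF receptor that osteoclasts also carry, at 1827 to 1951 CPM in all 6 libraries. The other 5 macrophage markers were uneven within both genotypes. They summed to 511.6, 435.0 and 133.2 CPM in WT libraries K090, L080 and L082 and to 100.8, 453.8 and 144.7 CPM in KO libraries K089, L078 and L081. WT K090, WT L080 and KO L078 thus stood apart from the other 3 libraries. The same libraries had the lowest summed osteoclast markers, at 39869, 51934 and 44352 CPM, against 57359 to 70383 CPM in the others. Most of this sum was *Mmp9*, *Acp5* and *Ctsk*, and not all of the 10 markers followed it. *Nfatc1* was highest in WT K090, at 523.4 CPM, and *Calcr* was lowest in WT L082, at 88.1 CPM. *Adgre1*, a macrophage surface receptor, was the largest part of the macrophage sum without *Csf1r*, at 59.9 to 324.0 CPM. It, *Csf1r*, *Mmp9*, *Nfatc1* and *Calcr* were named after their values were seen. Markers of the other cells of bone were near 0. The 7 osteoblast and osteocyte genes summed to 5.91 to 10.9 CPM in WT and 4.42 to 9.24 CPM in KO, and 5 neutrophil genes to at most 1.24 CPM in any library. The single hepatocyte gene analysed and the single red cell gene had 1 and 2 reads in all 6 libraries, and 3 skeletal muscle genes summed to at most 3.69 CPM.

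Sequences just before the start sites of the highest and the lowest paralog are shown because the levels of these genes differed most. Windows of 280 bases, 250 before and 30 from the RefSeq start site on (build GRCm38.p6), were searched on both strands for TGACGT (core of the cAMP response element), CACGTG (E-box), TGANTCA (AP-1), GAGGAA (core of the PU.1 site), TATAAA (the box bound by TBP) and GGGCGG (GC box). Capitals mark every match, in either orientation, and position 1 is the start site. The window of *Slc37a2* lies at chr9:37255709-37255988 on the minus strand and that of *Slc37a1* at chr17:31295974-31296253 on the plus strand. The latter lies inside the annotated gene, which begins at 31286792, so sequence before the outermost annotated start of *Slc37a1* is not shown.
Slc37a2: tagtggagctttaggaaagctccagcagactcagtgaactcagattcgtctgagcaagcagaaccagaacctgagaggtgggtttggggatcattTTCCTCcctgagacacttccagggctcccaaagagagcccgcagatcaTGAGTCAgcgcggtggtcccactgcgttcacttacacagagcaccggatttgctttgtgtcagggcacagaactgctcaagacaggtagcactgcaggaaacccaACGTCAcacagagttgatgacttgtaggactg
Slc37a1: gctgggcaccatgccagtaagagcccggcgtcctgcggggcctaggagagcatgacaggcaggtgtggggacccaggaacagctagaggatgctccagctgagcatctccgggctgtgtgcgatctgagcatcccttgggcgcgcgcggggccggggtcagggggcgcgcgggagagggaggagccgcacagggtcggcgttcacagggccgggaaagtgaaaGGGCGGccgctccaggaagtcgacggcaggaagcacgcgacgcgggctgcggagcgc
In the *Slc37a2* window TTCCTC, the reverse complement of the PU.1 core, began at position -155, an AP-1 match at position -107, and a core of the cAMP response element, written ACGTCA on this strand, at position -2. These letters occurred in 26% (PU.1 core), 7.46% (AP-1) and 7.26% (response element core) of the 32851 windows of this length. The full palindrome TGACGTCA, which contains the latter, was in neither window and in 1.74% of all windows. *Slc37a1* had 1 match, a GC box at position -27, which 34.7% of all windows held at some position. The windows also differed in base composition, with 52.9% G and C and 7 CpG in *Slc37a2* against 70.4% and 27 CpG in *Slc37a1*. Over all windows the medians were 52.5% and 6 CpG. All 7 genes matched the RefSeq table, with 10 windows among them. The PU.1 core was also in *G6pc3*, at positions -66, -20, -10 and 5. The core of the cAMP response element was also in overlapping *Slc37a4* windows, at positions -61 and -214. Neither core was thus particular to *Slc37a2*. GC boxes were also found in *Atraid*, *Slc37a3* and *Slc37a4*. E-boxes were found at positions -99 and -79 of *G6pc3* and at position -13 of 1 *Slc37a3* window. The TBP box was at position -32 in 1 of the *Slc37a4* windows. Matches describe the letters only, since binding was not measured.

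*Slc37a2*, the targeted gene, encodes the family member of osteoclast secretory lysosomes and lies on chromosome 9 (37227585 to 37255738, minus strand, mm10). It had 75789, 60889 and 76013 counts in WT (libraries K090, then L080, then L082), against 1233, 1446 and 1043 in KO libraries K089, L078 and L081. After scaling these were 1857, 2151 and 2440 CPM in WT and 45.3, 32.1 and 36.9 CPM in KO. Every KO library was far below every WT library, as the labels require. The mean fell from 2149 ± 291.5 CPM in WT to 38.1 ± 6.66 CPM in KO (SD, n = 3 each). What remained in KO was 1.77% of WT. KO differed from WT by a log2 fold change of -5.82 with a standard error of 0.20 and a 95% interval of -6.30 to -5.34 (adjusted p = 0.000707, edgeR's quasi-likelihood test, adjusted by Benjamini-Hochberg over all tested genes). Of all 13483 genes tested it was the only one called at an adjusted p below 0.05, a share of 0.00742%. At an unadjusted p below 0.05, 96 genes passed (0.712%), again with *Slc37a2* alone among the 7. The latter count rested on single libraries: it was 2732 without KO L078, 270 without WT L082, 57 without WT K090 or without WT L080, 38 without KO K089 and 32 without KO L081, and *Slc37a2* stayed the one gene called at an adjusted p below 0.05 in each of these fits. Reads were counted over the whole gene, so the counts do not show which exons the remaining KO reads came from.

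**Figure D1:**
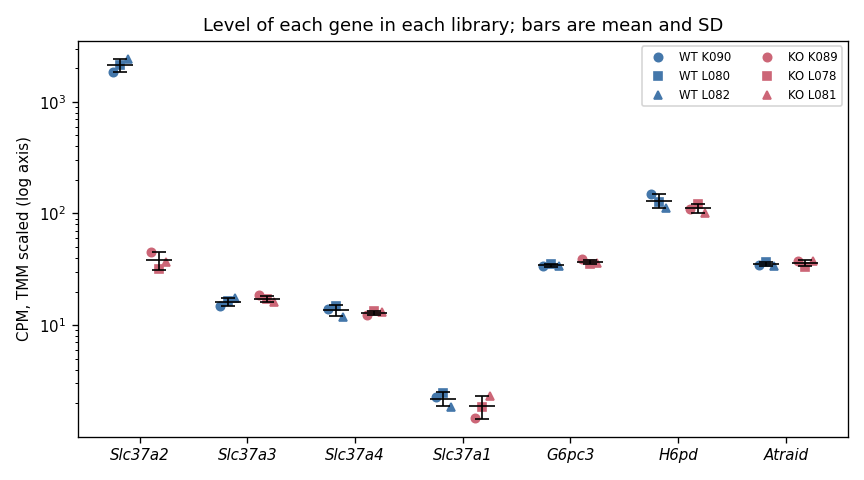
Level of the 7 genes in each library, in TMM-scaled CPM on a log axis; blue symbols are WT and red symbols KO libraries, and black bars give mean and SD of 3 libraries. *Slc37a2* drops from above 1857 CPM in WT to below 45.3 CPM in KO, and the other genes stay in their WT range or close to it.

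*Slc37a3* encodes the lysosomal bisphosphonate transporter (chromosome 6, 39334773 to 39377675, minus strand). Its levels were 14.9, 16.3 and 17.4 CPM in WT and 18.5, 17.0 and 16.1 CPM in KO. The groups overlapped, and the highest library was KO K089. Means were 16.2 ± 1.24 CPM in WT and 17.2 ± 1.20 CPM in KO. The log2 difference of KO from WT was 0.09, with a standard error of 0.10 and a 95% interval of -0.16 to 0.33 (adjusted p = 0.969, edgeR). The interval leaves room for a level between 0.897-fold and 1.26-fold that of WT.

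The ER G6P transporter *Slc37a4* (chromosome 9, 44396852 to 44402968, plus strand) lies on the same chromosome as the targeted gene. Its levels were 14.0, 15.0 and 11.8 CPM in WT and 12.2, 13.3 and 13.0 CPM in KO. All 3 KO libraries fell inside the WT range. The 3 highest libraries were those with the most macrophage marker reads, WT K090, WT L080 and KO L078, and the part of this in the values was not tested. KO L078 and KO L081, at 13.3 and 13.0 CPM, lay closer together than the counting error, 4.09 to 5.48% of the value. Their order is therefore uncertain. Means were 13.6 ± 1.59 CPM and 12.8 ± 0.544 CPM, and the log2 difference was -0.08 with a standard error of 0.12 and a 95% interval of -0.36 to 0.20 (adjusted p = 0.969, edgeR). The interval corresponds to 0.778-fold to 1.15-fold.

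*Slc37a1*, the closest relative of *Slc37a2* in reported transport activity, was the faintest of the 7 (chromosome 17, 31286792 to 31350739, plus strand). Between 40 and 92 reads were counted per library. The levels were 2.25, 2.47 and 1.86 CPM in WT and 1.47, 1.86 and 2.33 CPM in KO. The lowest value was KO K089 and the highest WT L080, and the groups overlapped. Means were 2.20 ± 0.310 CPM and 1.89 ± 0.433 CPM. The log2 difference was -0.22 with a standard error of 0.24 and a 95% interval of -0.79 to 0.36 (adjusted p = 0.969, edgeR), or 0.577-fold to 1.28-fold. Counting error alone amounts to 10.4 to 15.8% of the value at this depth, beside coefficients of variation of 14.1% in WT and 22.9% in KO. The interval shows which changes remain possible for this gene and is not a limit of detection.

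**Figure D2:**
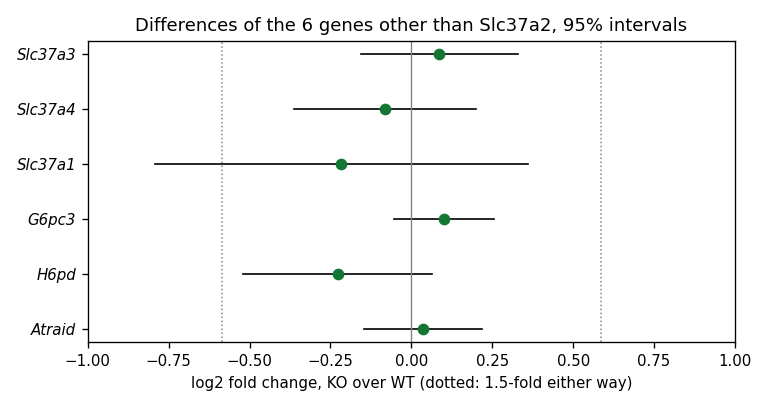
Log2 fold change of KO over WT (x axis) for the 6 genes other than *Slc37a2*, from edgeR's quasi-likelihood fit; lines are 95% intervals and dotted lines mark 1.5-fold either way. All 6 intervals include 0, and that of *Slc37a1*, from -0.79 to 0.36, is the widest.

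Among the ER enzymes, *G6pc3* encodes the glucose-6-phosphatase of most tissues (chromosome 11, 102189620 to 102194081, plus strand). Its levels were 34.0, 35.26 and 33.6 CPM in WT and 38.9, 35.35 and 36.1 CPM in KO. The KO libraries were all above the WT libraries, but by a narrow margin between WT L080 and KO L078. Means were 34.3 ± 0.860 CPM and 36.8 ± 1.87 CPM. The log2 difference was 0.10 with a standard error of 0.06 and a 95% interval of -0.05 to 0.26, which did not pass the test (adjusted p = 0.969, edgeR). Groups that do not overlap were found for 581 of all tested genes (4.31%), so that 1 of the 6 untargeted genes is no result about them. In CPM without TMM scaling, an alternative chosen after seeing the data, the *G6pc3* groups overlapped, at 33.4 to 36.2 CPM in WT and 34.5 to 37.5 CPM in KO. Of the 7 genes *G6pc3* varied least within groups, with a log2 SD of 0.06, and 8.36% of all tested genes varied less.

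*H6pd*, the G6P dehydrogenase of the ER (chromosome 4, 149979475 to 150009023, minus strand), had levels of 150.2, 126.9 and 112.8 CPM in WT. In KO they were 110.6, 120.7 and 101.6 CPM. WT K090 was the highest library and KO L081 the lowest, and the groups overlapped. Means were 130.0 ± 18.9 CPM and 111.0 ± 9.53 CPM. The log2 difference was -0.23 with a standard error of 0.12 and a 95% interval of -0.52 to 0.07 (adjusted p = 0.969, edgeR), or 0.697-fold to 1.05-fold. Without WT K090 the log2 difference was -0.11, and without WT L082 it was -0.30. WT K090 was also the library with the lowest summed osteoclast markers, 39869 CPM, and KO K089 and L081 had the highest sums, 70383 and 64178 CPM. These sums were mostly *Mmp9*, *Acp5* and *Ctsk*. The 3 libraries with the highest *H6pd* were again those with the most macrophage marker reads. The part of either in the *H6pd* values was not tested.

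*Atraid*, whose product is the partner of SLC37A3 (chromosome 5, 31048312 to 31054623, plus strand), had levels of 34.5, 37.1 and 34.1 CPM in WT and 37.3, 33.4 and 37.7 CPM in KO. Both the lowest and the highest library were KO. Means were 35.2 ± 1.65 CPM and 36.1 ± 2.39 CPM, and the log2 difference was 0.04 with a standard error of 0.08 and a 95% interval of -0.15 to 0.22 (adjusted p = 0.969, edgeR), or 0.904-fold to 1.16-fold. *Atraid* shares 396 bases, 19.0% of its exon length, with *Slc5a6* on the opposite strand, and whether the counting used strand is not given in the sources used here. *Slc5a6*, a vitamin transporter, was at 11.1 ± 1.03 CPM in WT and 10.3 ± 0.685 CPM in KO with a log2 difference of -0.10 (adjusted p = 0.969, edgeR), so reads of the shared stretch cannot be told apart between these genes.

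For 5 of the 7 genes, namely *Slc37a3*, *Slc37a4*, *G6pc3*, *H6pd* and *Atraid*, the 95% interval lay within 1.5-fold of no difference in either direction, as it did for 61.1% of all tested genes. Within 2-fold lay 6 of the 7, *Slc37a1* included, beside 78.6% of all tested genes. The median log2 difference of the 6 untargeted genes was -0.02, with 3 positive and 3 negative, and that of all tested genes was also -0.02. The median size of the difference regardless of sign was 0.09 for the 6 genes and 0.10 for all genes. *Atraid* had the smallest difference, below which lay 20.9% of all genes, and *H6pd* the largest, below which lay 77.8%. The median log2 SD within groups was 0.12 for the 6 genes and 0.17 for all genes.

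Levels were compared between genes per kb of annotated exon. In WT the order was *Slc37a2* at 323.6 ± 43.9 CPM per kb, *H6pd* at 24.8 ± 3.62, *Atraid* at 16.9 ± 0.790, *G6pc3* at 15.4 ± 0.386, *Slc37a4* at 4.76 ± 0.555, *Slc37a3* at 2.99 ± 0.229 and *Slc37a1* at 0.189 ± 0.0267 CPM per kb (SD, n = 3). No neighbours in this order overlapped in their library values. *Slc37a2* ranked 92nd of 18800 genes with an annotated length, whereas *Slc37a1* ranked 12507th. In KO, *Slc37a2* dropped to the fourth place at 5.73 ± 1.00 CPM per kb, rank 6114, between *G6pc3* at 16.5 ± 0.838 and *Slc37a4* at 4.49 ± 0.190. *Atraid* at 17.3 ± 1.15 CPM per kb and *G6pc3* overlapped in KO and did not differ beyond their spread. The order of close neighbours also depended on the length used. With the longest transcript *G6pc3* stood above *Atraid* in WT, 21.8 against 20.8 CPM per kb, with overlapping values, and *Slc37a2* and *Slc37a4* overlapped in KO. With the longest coding sequence *Slc37a3* stood above *Slc37a4* in WT, 10.9 against 10.1 CPM per kb, with overlapping values. *Slc37a1* has 18 annotated transcripts and an exon length of 11596 bases, against 3990 for its longest transcript, and its level per kb in WT was 0.551 CPM by the latter. It was the lowest of the 7 under all 3 lengths and in both genotypes.

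The family was therefore described by the share of its summed level per kb held by each paralog, a measure in which scaling between libraries cancels. *Slc37a2* held 97.3, 97.5 and 98.0% in WT and 46.6, 37.8 and 41.8% in KO. In WT the remaining share was made up of *Slc37a4* at 1.46 ± 0.313%, *Slc37a3* at 0.908 ± 0.0509% and *Slc37a1* at 0.0582 ± 0.0134%. In KO *Slc37a4* held 33.3 ± 3.64%, *Slc37a3* 23.5 ± 1.15% and *Slc37a1* 1.21 ± 0.327%. *Slc37a2* itself is in the denominator of these shares. The summed level of the other 3 paralogs was 7.84, 8.46 and 7.52 CPM per kb in WT and 7.82, 7.95 and 7.74 CPM per kb in KO. Its means were 7.94 ± 0.481 and 7.84 ± 0.105 CPM per kb, and the KO values lay inside the WT range. The whole family summed to 331.5 ± 43.7 CPM per kb in WT and 13.6 ± 0.955 CPM per kb in KO. In WT the *Slc37a2* level was 57.2, 61.9 and 88.6 times that of *Slc37a4* in the 3 libraries, and in KO 1.59, 1.04 and 1.22 times. Per kb of exon, the *Slc37a2* level left in KO was thus above that of each other paralog in all 3 libraries. By longest transcript it was 1.46, 0.955 and 1.12 times that of *Slc37a4* in KO. By longest coding sequence it was 3.29, 2.15 and 2.51 times in KO and 118.2, 128.0 and 183.2 times in WT. Which exons the KO reads came from is not known, so these KO levels and shares do not measure intact *Slc37a2* transcript.

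**Figure D3:**
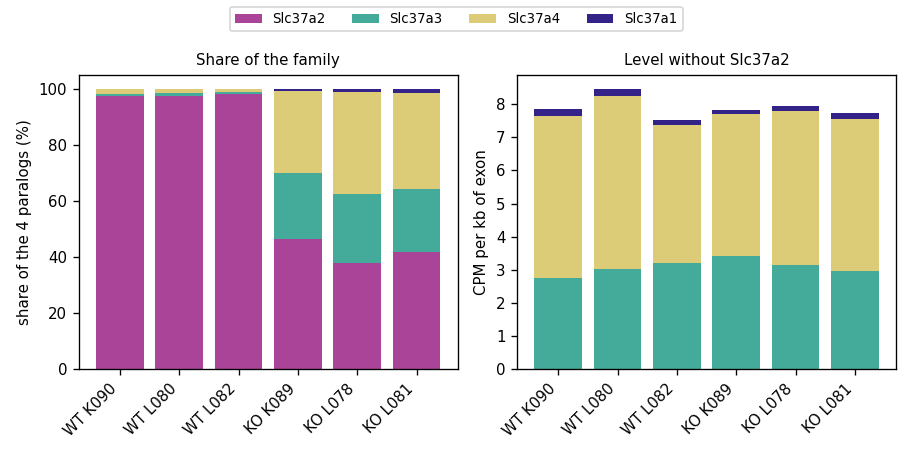
Left, share of the summed level of the 4 paralogs held by each (percent of CPM per kb); right, level of *Slc37a3*, *Slc37a4* and *Slc37a1* alone in CPM per kb of exon, for each library. *Slc37a2* holds 97.3 to 98.0% in WT and 37.8 to 46.6% in KO, while the summed level of the other 3 runs from 7.52 to 8.46 CPM per kb.

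Ratios between partners were read within each library, per kb. *Slc37a4*, the transporter, stood at 0.320, 0.330 and 0.275 of *G6pc3*, the phosphatase, in WT and at 0.245, 0.292 and 0.281 in KO. The means were 0.308 ± 0.0296 and 0.273 ± 0.0248, and the groups overlapped. *H6pd* to *G6pc3*, the enzymes that draw on the same ER pool of G6P, was 1.88, 1.53 and 1.43 in WT and 1.21, 1.45 and 1.20 in KO. Here only KO L078 reached into the WT range, and the means were 1.61 ± 0.236 and 1.29 ± 0.144. Both this ratio and that of *Slc37a4* to *G6pc3* were highest in WT K090, WT L080 and KO L078. *H6pd* and *Slc37a4* themselves were also highest there, so the ratios add no separate observation. WT K090, WT L080 and KO L078 had the most macrophage marker reads, and the part of this in the ratios was not tested. *Slc37a3* to *Atraid* was 0.166, 0.169 and 0.196 in WT and 0.190, 0.197 and 0.164 in KO, with means of 0.177 ± 0.0163 and 0.184 ± 0.0171. This pair spanned nearly the same range in both genotypes. The smallest two-sided p of an exact permutation test on 3 against 3 libraries is 0.1, so these ratios are given without a test.

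**Figure D4:**
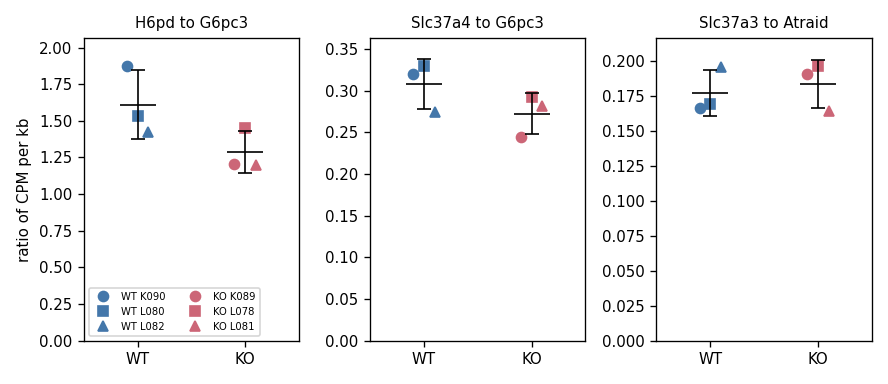
Ratio of CPM per kb between partner genes in each library, with axes starting at 0; symbols are single WT (blue) and KO (red) libraries and bars give mean and SD of 3. The genotypes overlap in all 3 ratios, and *H6pd* to *G6pc3* shows the largest distance between means, 1.61 against 1.29.

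Other genes of ER G6P handling were hardly detected. *G6pc2*, a glucose-6-phosphatase of pancreatic islets, had 1 read in all 6 libraries, in WT, and 0 of 101465265 counts in KO, which allows up to 0.0296 CPM, a limit that covers counting error only. The liver enzyme *G6pc* was not analysed here. *Hsd11b1*, which uses the NADPH made by H6PD to activate glucocorticoids, was at 0.343, 0.459 and 0.289 CPM in WT and 0.110, 0.311 and 0.106 CPM in KO. Its groups overlapped, and the log2 difference of -0.93 had a 95% interval of -2.14 to 0.28 (adjusted p = 0.969, edgeR).

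Cytosolic G6P is made by hexokinases and used by glycolysis and the pentose phosphate pathway. Of 13 listed genes 11 passed the filter and none was called, with 7 positive and 4 negative and a median log2 difference of 0.04 against -0.02 over all genes. *Gpi1*, which turns G6P into fructose-6-phosphate, was at 677.8 ± 48.8 CPM in WT and 688.3 ± 79.3 CPM in KO, a log2 difference of 0.02 with an interval of -0.25 to 0.29. *Pgd* of the pentose phosphate pathway was at 622.2 ± 61.2 and 580.0 ± 50.7 CPM, a log2 difference of -0.10 with an interval of -0.36 to 0.16. *Hkdc1*, a hexokinase-like gene, had the largest difference of the list, 0.91 with an interval of -0.28 to 2.11, on levels of 1.52, 1.03 and 3.02 CPM in WT and 4.26, 1.89 and 4.38 CPM in KO. *Hk3*, named after its values were seen, was the one gene of the list with an unadjusted p below 0.05 (log2 difference -0.42, adjusted p = 0.969, edgeR). Its means were 86.5 CPM in WT and 64.4 CPM in KO.

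All 6 listed genes of lysosomal solute transport were tested and none was called, with 3 positive and 3 negative and a median of 0.01. *Glmp*, a lysosomal membrane glycoprotein, was at 190.5 ± 14.3 CPM in WT and 218.7 ± 37.9 CPM in KO, a log2 difference of 0.20 with an interval of -0.14 to 0.53. *Mfsd1*, the transporter that pairs with GLMP, was at 186.9 ± 25.0 and 157.5 ± 31.3 CPM, a log2 difference of -0.25 with an interval of -0.64 to 0.15. *Slc2a6*, a hexose transporter of lysosomes, was the most uneven, at 14.4, 13.0 and 2.63 CPM in WT and 4.66, 10.2 and 5.16 CPM in KO. Its log2 difference of -0.58 had an interval of -2.11 to 0.95. *Slc2a6* and *Mfsd1*, like *Hsd11b1* and *Hk3*, were highest in the 3 libraries with the most macrophage marker reads, and the part of this in their values was not tested. *G6pdx* of the cytosolic list and *Mvk* of the mevalonate route, named after their values were seen, were also highest there. The other tested genes of the lists were not. How many of all tested genes share this order was not counted.

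Bisphosphonates released by SLC37A3 and ATRAID act on the mevalonate route, which makes the isoprenoids that anchor small GTPases. All 14 listed genes were tested and none was called, with 5 positive and 9 negative and a median of -0.03. *Hmgcs1*, which catalyses an early step, was at 295.7 ± 25.3 CPM in WT and 280.9 ± 15.6 CPM in KO, a log2 difference of -0.07 with an interval of -0.28 to 0.13. *Nus1*, a subunit of the dolichol-making prenyltransferase, was at 263.8 ± 21.1 and 283.0 ± 47.8 CPM, a log2 difference of 0.10 with an interval of -0.23 to 0.43. The largest difference was that of *Fntb*, a farnesyltransferase subunit, at -0.20 with an interval of -0.48 to 0.08. *Fntb* stood at 9.26, 8.98 and 9.02 CPM in WT and 7.19, 8.68 and 7.78 CPM in KO and was the one gene of this list whose groups did not overlap, against 4.31% of all tested genes.

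**Figure D5:**
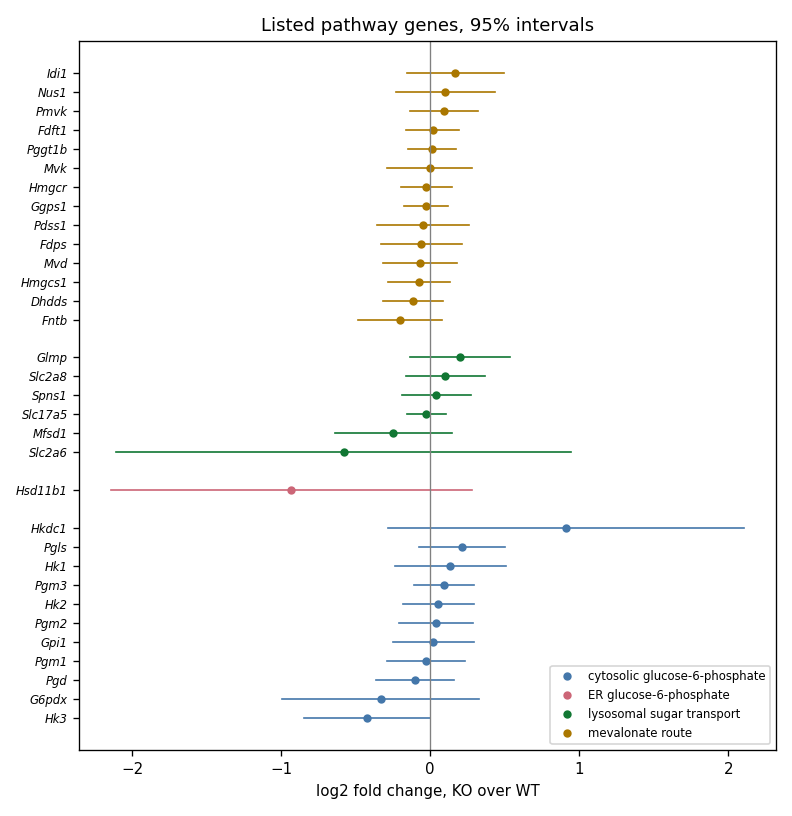
Log2 fold change of KO over WT (x axis) with 95% intervals for the tested genes of the 4 pathway lists, coloured by list and sorted within each. The points scatter on both sides of 0, and the widest intervals belong to the low or uneven genes *Hkdc1*, *Hsd11b1* and *Slc2a6*.

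Genes next to *Slc37a2* on chromosome 9 were looked at because the allele was engineered there. *Tmem218*, which ends 2884 bases from *Slc37a2*, was at 5.16 ± 0.428 CPM in WT and 4.61 ± 0.513 CPM in KO, a log2 difference of -0.16 with an interval of -0.53 to 0.20 (adjusted p = 0.969, edgeR). *Ccdc15*, 20096 bases away on the other side, was at 6.42 ± 0.750 and 5.75 ± 1.27 CPM, a log2 difference of -0.16 with an interval of -0.63 to 0.32 (adjusted p = 0.969, edgeR). Both overlapped between genotypes. In the GENCODE annotation of this build *Slc37a2* shares 241 exon bases (3.63%) with *Gm48081* and none with *Gm10177*, both on the opposite strand, and *Slc37a1* shares 964 (8.31%) with the pseudogene *AC154652.2*. *Mir7085* lies in an intron of *Slc37a4*. None of these 4 was analysed here.

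For each of the 7 genes, the genes with the most similar log2 CPM over the 6 libraries were listed from 11857 candidates with a mean of at least 1 CPM, as a description. For *Slc37a2* these were *Ntan1* (Pearson's r = 0.991) and *Hspa5*, the ER chaperone BiP (r = 0.989), whose own log2 differences were both -0.15 against -5.82. For *Slc37a3* they were *Lipt2* (r = 0.974) and *Zfp426* (r = 0.967), for *Slc37a4* *Tnfaip8* (r = 0.990) and *Fbxl6* (r = 0.989), and for *Slc37a1* *Jade1* (r = 0.986) and *Sub1* (r = 0.984). *G6pc3* was most like *Dusp7* (r = 0.988) and *Zfp729a* (r = 0.980), *H6pd* most like *Cep43* (r = 0.996) and *Scamp2* (r = 0.995), and *Atraid* most like *Gm36117* (r = 0.991) and *Ube2d-ps* (r = 0.990). These are the highest of many values over few libraries that share depth and genotype. None of the 7 was among the closest pair of another.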

How the data were processed

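RNAseq of 3 WT and 3 Slc37a2 KO osteoclast libraries was sequenced on a NovaSeq. The authors deposited whole-number read counts per gene symbol, not normalized, beside columns of their own edgeR comparison (fold changes, test statistic, p-values), which were not used. The submitters' processing notes name bcl2fastq 2.20.0.422, edgeR 3.30.3 and mm10. Which aligner, counter and annotation were used is not given in the sources used here. No column belonged to other samples (0). Counts were filtered with filterByExpr, scaled by TMM and fitted with glmQLFit and glmQLFTest in edgeR 4.0.16 (R 4.3.3) with genotype as the term, and p-values were adjusted by Benjamini-Hochberg over 13483 genes. Intervals are 95%. Alternatives used DESeq2 1.42.0. Fits were tested on simulated data. Lengths and coordinates came from GENCODE M21, whose build matches mm10. Promoters came from RefSeq. Log2 CPM for likeness used a prior count of 2. The labels call the samples biological replicates, and no heading ties a column to their numbers.

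The 7 genes and all lists were chosen with earlier results of these data known. Beside the 7, the text names, from each list, every called gene, the 2 with the highest mean CPM and the 1 with the largest difference, the neighbours and overlapping genes, and the 2 most similar genes of each.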

Additional observations from a re-analysis of the deposited data

How the results depend on the processing

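*Slc37a2* was the one gene of the 7 called under all 13 alternatives, with a log2 fold change of -5.83 to -5.80 under other scalings, filters and tests and -5.94 to -5.69 with 1 library left out. The 6 others kept their direction and stayed uncalled under each. With 1 library left out, the log2 difference ran from -0.37 to -0.05 for *Slc37a1*, from 0.03 to 0.17 for *Slc37a3*, from -0.15 to -0.01 for *Slc37a4*, from 0.08 to 0.13 for *G6pc3*, from -0.30 to -0.11 for *H6pd* and from 0.02 to 0.09 for *Atraid*. Over all genes the calls went from 1 to 2 without a filter, with the likelihood ratio test and with DESeq2's Wald test, by the addition of *En2*, named after its values were seen. The cause was not tested. No gene of the pathway lists was called under any alternative. The mean *Slc37a2* share of the family was 97.6% in WT and 42.0% in KO. In WT it was 97.2% by longest transcript and 98.5% without division by length, and in KO 38.4% by longest transcript and 54.1% without division by length, because the paralogs differ in length. Members whose groups do not overlap went from 2 to 1 without TMM scaling. No paired analysis was possible because the column headings carry no replicate number. The letter that opens each animal number, K or L, was added as a term instead: *Slc37a2* was still the one gene called, at -5.83, and 47 genes had an unadjusted p below 0.05 against 96. What the letter stands for is not given in the sources used here. Depth limits *Slc37a1* most, with 40 to 92 counts per library.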
